A study of Mus musculus with 20 samples.

Results

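The 34 collagen genes examined here were all genes of the count table whose mouse symbol has the form Col, a number, a and a number, and whose reads summed to 100 or more over the 20 tumors, out of 35226 genes in the table. They comprised 10 fibrillar collagens, 4 chains of the basement membrane collagen (type IV) and 20 other collagens, the last made up of 6 chains of the beaded filament type VI, 6 fibril-associated collagens, 3 transmembrane collagens, 2 multiplexins, the network collagen Col8a1, the anchoring fibril collagen Col7a1 and Col28a1. Of 44 collagen symbols in the table, 10 fell under the minimum, the highest of them Col4a4 with 82 reads and Col11a1 with 73, while the lowest genes kept were Col22a1 with 146 and Col6a4 with 230.

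The tumors grew from LLC1 cells, an established mouse Lewis lung carcinoma line, injected under the skin of the right flank of male C57Bl6/J mice aged 8 to 10 weeks in a mixture with Matrigel, itself a basement membrane extract. The mice were given vehicle, KW6002 (istradefylline, an antagonist of the adenosine receptor encoded by Adora2a), cisplatin (a platinum drug that crosslinks DNA) or cisplatin together with KW6002, here called cotreatment, with 5 tumors and 1 library per tumor in each of the 4 groups. The comparisons ask how each drug, and KW6002 added to cisplatin, altered the tumor transcriptome. All mice carried the same cell line, and no engineered allele is named for any group, and the labels give the agent without a dose or a time. The label of vehicle 1 reads vehicle, while those of the other vehicle tumors read vehicle_vehicle. The meaning of this difference is not stated, and the 5 were taken as 1 group. Tumor and host cells are both mouse, so a read cannot be assigned to either, and in bulk tumors fewer cells of a type and less RNA per cell cannot be told apart.

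Collagens are trimeric proteins of the extracellular matrix. Fibrillar collagens such as types I and III assemble into the fibers that give tissue its tensile strength, with type V inside the fibrils as a regulator of their diameter. Type IV chains form the sheet under epithelia and around vessels, and type VI chains assemble as heterotrimers of the α1, α2 and α3 chains into beaded filaments next to it. In carcinomas fibroblasts are the best-known makers of fibrillar collagens and of type VI, endothelial cells and pericytes deposit vascular basement membrane, and types XV and XVIII carry heparan or chondroitin sulfate and release angiogenesis-inhibiting fragments from their ends.

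The libraries held 28.4 to 41 M counted reads, and replicates of a group correlated with a Spearman coefficient of at least 0.979 over genes. Labels give library codes in 2 runs of numbers, an earlier one with vehicle 1, KW6002 1 and 2, cisplatin 1 and 2 and cotreatment 1 to 3, and a later one with the other 12 tumors. Of the carcinoma markers, Krt8 and Krt18 were at 95.2 CPM or more in every tumor. Krt19 and the adhesion gene Cdh1 averaged 2.1 to 4.14 and 1.86 to 2.16 CPM in the 4 groups, Krt7 was at 0.11 to 1.03 CPM, and the epithelial adhesion gene Epcam was at 0 in 11 of 20 tumors with at most 5 reads, so the carcinoma label was met by Krt8 and Krt18 only. Of the fibroblast markers, Dcn, Lum, Dpt and Pdgfra were at 182 CPM or more in every tumor, and the other 6 at 61.8 CPM or less. Cisplatin 4 and 5 stood apart from cisplatin 1 to 3 in many collagens, and calls of collagens that change when they are left out are given below. The fibroblast markers Pi16, Clec3b and Mfap5 were high in the same 2 tumors and in cotreatment 5.

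Expression is given as CPM, the reads of a gene per M reads of its library after TMM scaling of library sizes. Per kilobase of the principal transcript, the only scale on which genes can be compared with each other, Col3a1 led with a mean level over all tumors of 1487 CPM per kb and made up 60.4% of all collagen reads. Col18a1 followed at 235, Col6a1 at 205, Col4a1 at 111, Col6a2 at 101, Col4a2 at 55.0, Col1a2 at 53.7, Col16a1 at 46.6, Col6a3 at 46.4 and Col1a1 at 31.9 CPM per kb. At the other end Col22a1, Col6a4, Col6a6, Col4a6 and Col17a1 lay between 0.0242 and 0.0926 CPM per kb. Col3a1 thus lay far above both type I chains, and Col18a1, Col6a1, Col6a2 and the main type IV chains lay between. All collagens together took 1.37% of the counted reads.

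The upstream sequences of genes that the results turn on are printed for orientation, because Col6a1 and Col6a2 moved together while Col6a3, the gene for their partner chain, moved the other way, Col28a1 rose and Col8a1 fell under cotreatment, and Col3a1 was the most abundant. They are RefSeq sequences of build GRCm38.p6, matched by symbol for 27 of the 34 members, read 5′ to 3′ along the gene. For Col6a2, Col6a3, Col28a1, Col8a1 and Col3a1, in this order, they cover the 250 bases before the gene start at chr10:76623631-76623880, chr1:90843972-90844221, chr6:8192618-8192867, chr16:57754738-57754987 and chr1:45311288-45311537, all on the minus strand except Col3a1. For Col6a1 only the 126 bases of chr10:76726169-76726294 are shown, on the minus strand, which end where the annotated gene begins, 124 bases ahead of its RefSeq start. Capitals mark matches, on either strand, to the GC box GGGCGG, the CCAAT box CCAAT or the TATA box TATAAA, and no match overlaps another.
Col6a1: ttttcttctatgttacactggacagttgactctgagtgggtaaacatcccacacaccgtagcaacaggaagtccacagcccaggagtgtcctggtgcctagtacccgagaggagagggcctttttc
Col6a2: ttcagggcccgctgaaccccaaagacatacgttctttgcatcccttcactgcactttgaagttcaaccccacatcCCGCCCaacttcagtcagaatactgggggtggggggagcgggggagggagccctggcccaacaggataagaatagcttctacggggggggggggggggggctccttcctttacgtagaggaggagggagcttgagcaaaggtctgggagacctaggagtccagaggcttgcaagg
Col6a3: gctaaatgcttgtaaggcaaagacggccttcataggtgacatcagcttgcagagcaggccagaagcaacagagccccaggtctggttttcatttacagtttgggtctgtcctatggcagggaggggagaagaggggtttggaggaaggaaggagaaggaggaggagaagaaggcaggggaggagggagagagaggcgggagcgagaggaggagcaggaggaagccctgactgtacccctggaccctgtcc
Col28a1: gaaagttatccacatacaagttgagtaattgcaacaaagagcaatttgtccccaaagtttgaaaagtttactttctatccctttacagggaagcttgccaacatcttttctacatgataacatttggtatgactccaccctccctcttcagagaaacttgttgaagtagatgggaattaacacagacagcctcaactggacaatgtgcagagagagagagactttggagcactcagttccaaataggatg
Col8a1: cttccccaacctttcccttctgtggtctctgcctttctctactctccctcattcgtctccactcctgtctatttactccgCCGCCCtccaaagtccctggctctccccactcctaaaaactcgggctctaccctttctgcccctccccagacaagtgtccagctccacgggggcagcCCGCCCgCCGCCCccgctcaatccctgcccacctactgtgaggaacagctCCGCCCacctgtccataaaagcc
Col3a1: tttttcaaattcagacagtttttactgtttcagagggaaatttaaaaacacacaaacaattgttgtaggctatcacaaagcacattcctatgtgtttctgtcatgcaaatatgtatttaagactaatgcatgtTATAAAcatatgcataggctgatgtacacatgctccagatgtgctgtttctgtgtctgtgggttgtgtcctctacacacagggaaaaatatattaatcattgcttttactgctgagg
Col8a1 held 4 GC boxes and Col6a2 held 1, where 32.7% of 32817 mouse promoters have at least 1 in the same 250 bases. Col3a1 held 1 TATA box, found in 12.4% of promoters, and none of the 6 stretches held a CCAAT box, found in 33.8% of promoters over 250 bases and in 16.9% over 126. The Col6a1, Col6a3 and Col28a1 stretches held none of these letters. The G and C content ran from 35.2% for Col3a1 and 40.4% for Col28a1 to 59.2% for Col6a2 and 60.8% for Col8a1, against a median of 52.4% over all promoters.

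Summed by class, the ranges of the groups overlapped, with the exception of other collagens in KW6002 and cotreated tumors. As mean ± SD of 5 tumors, fibrillar collagens summed to 9542 ± 1228 CPM with vehicle, 8619 ± 609.5 with KW6002, 9301 ± 2432 with cisplatin and 9384 ± 517 with cotreatment. Without Col3a1 the same sums were 895 ± 195, 813 ± 193, 1236 ± 917 and 815 ± 299 CPM, so the spread within cisplatin was the widest. Basement membrane chains summed to 1095 ± 254, 1011 ± 101.5, 1143 ± 205 and 1257 ± 167 CPM, and other collagens to 3152 ± 502, 3033 ± 184, 3422 ± 580.0 and 3777 ± 213 CPM, in the same order of groups. The cotreated tumors lay between 3587 and 4093 CPM for other collagens and the KW6002 tumors between 2759.7 and 3224, so these 2 ranges did not overlap, while the vehicle and cisplatin ranges overlapped both. No test was made of these sums.

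**Figure D1:**
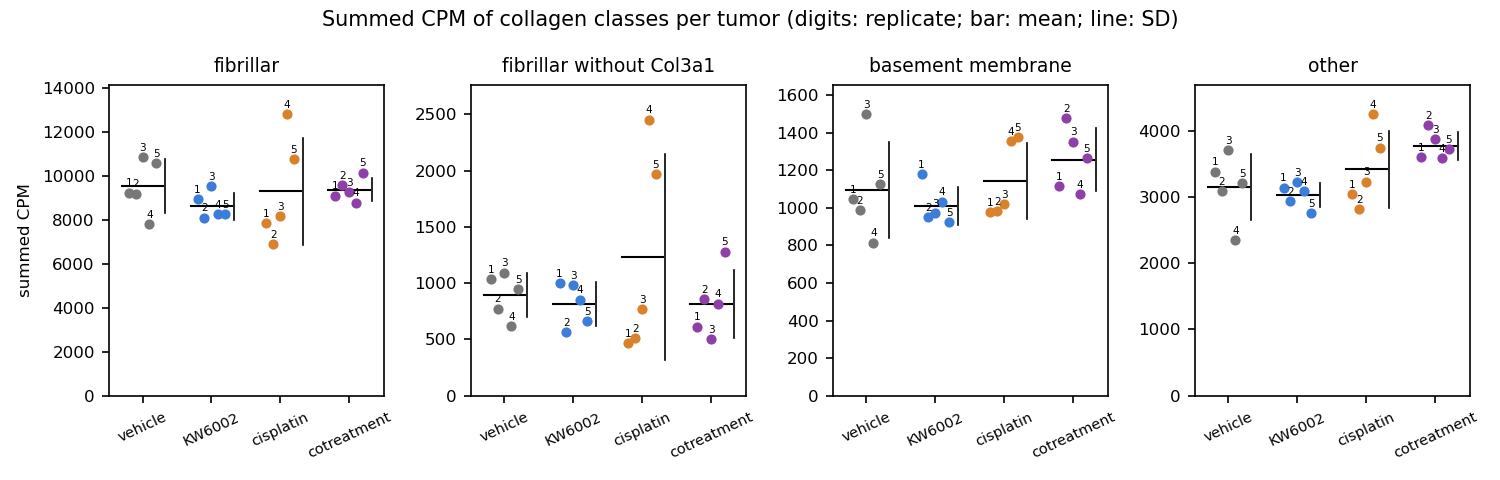
Summed expression of collagen classes in CPM (vertical axes, from 0) in each of 20 tumors by group. Points are tumors with their replicate number, bars are means and lines are SDs of 5 tumors, and cisplatin 4 and 5 reach 2455 and 1973 CPM for fibrillar collagens without Col3a1, above the other 18 tumors.

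KW6002 alone was compared with vehicle to ask what the antagonist did without cisplatin. No collagen was called, that is, reached an adjusted p under 0.05 in the edgeR quasi-likelihood test and a log2 fold change of at least 0.32 in either direction. In this comparison 0.0% of the 16665 tested genes were called, and DESeq2 called 0 collagens as well. At an unadjusted p under 0.05 there were 2 collagens, Col4a5 and Col23a1, and 339 of all genes, and in 0 of 34 did the groups fail to overlap, as in 0.342% of tested genes. All 34 members had passed the low-count filter.

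Col4a5, an X-linked basement membrane chain, stood at 31.2, 41.3, 31.5, 23.3 and 45.2 CPM in vehicle tumors 1 to 5 and at 21.6, 28.5, 24.6, 27.3 and 25.5 in KW6002 tumors. The KW6002 values lay at or below the lower part of the vehicle range and overlapped it, with a log2 fold change of -0.44 ± 0.16 (SE) and an adjusted p of 1.0 by edgeR. Col23a1, a transmembrane collagen, had -0.58 ± 0.23 and the same adjusted p. The median log2 fold change of the 34 collagens was -0.11 and 6 were positive, against a median of 0.0 over all tested genes. For Col3a1 the 95% interval of the log2 change ran from -0.35 to 0.05, for Col6a1 from -0.42 to 0.21 and for Col4a1 from -0.4 to 0.14.

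Cisplatin alone raised 2 collagens over vehicle, Col4a5 by 1.59-fold and Col28a1 by 2.03-fold, and lowered none by the call rule. These were 2 of 34 members, or 5.88%, while 10.6% of all tested genes were called, with 6.01% of tested genes higher and 4.57% lower, and the difference between the shares was not tested. Without cisplatin 4, 4 of the 34 were called against 8.47% of tested genes, and with cisplatin 4 and 5 left out 4 against 9.35%. The same 2 were the members whose groups did not overlap, against 10.4% of tested genes. The fibrillar class had 0 of 10 called by edgeR and 3 of the 10 at an unadjusted p under 0.05, as had 5143 of the 16665 tested genes. Its Col24a1 had -0.44 (adjusted p = 0.0622), and it was called lower by DESeq2 (-0.43, adjusted p = 0.0446) and by edgeR with the library code run as a term (-0.47, adjusted p = 0.0421) or without vehicle 2 (-0.5, adjusted p = 0.0479). Among the other collagens Col18a1 had 0.28 (adjusted p = 0.0673) and Col6a3 -0.3 (adjusted p = 0.0974). Col18a1 was called higher without vehicle 3 (0.37, adjusted p = 0.0211) or cisplatin 1 (0.32, adjusted p = 0.0499). Col6a3 was called lower without vehicle 4 (-0.37, adjusted p = 0.0483). The median log2 fold change of the 34 was 0.21, against 0.0 over all tested genes.

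Col4a5 values were 69.1, 55.1, 49.6, 49.9 and 50.9 CPM in cisplatin tumors 1 to 5, against the vehicle values above. Every cisplatin tumor was above every vehicle tumor, and tumor 1 was the highest. The log2 fold change was 0.67 ± 0.16 (adjusted p = 0.00639, edgeR). The neighbouring gene Col4a6, which lies head to head with Col4a5 on the X chromosome, stayed at 0.307 to 0.778 CPM in cisplatin and 0.211 to 0.685 in vehicle tumors and was not called.

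Col28a1, a collagen with von Willebrand factor A domains known mainly from peripheral nerve, was expressed at 2.8, 4.39, 3.56, 1.51 and 2.41 CPM in vehicle tumors. In cisplatin tumors it reached 7.85, 7.31, 4.72, 4.75 and 5.11 CPM. Here too no cisplatin tumor overlapped the vehicle tumors, though the lowest 2 exceeded vehicle 2 by little, and the log2 fold change was 1.02 ± 0.24 (adjusted p = 0.00695). In the later run of library codes alone, with 4 vehicle and 3 cisplatin tumors, Col4a5 had 0.52 ± 0.18 (adjusted p = 0.0646) and Col28a1 had 0.73 ± 0.31 (adjusted p = 0.104), and neither was called. The collagens called there were Col8a1 at -0.52 ± 0.17 (adjusted p = 0.0473) and Col2a1 at 1.65 ± 0.4 (adjusted p = 0.0151), 2 of 34 where 15.9% of tested genes were called. The earlier run held 1 vehicle tumor and gives no such value.

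Type I collagen was high in 2 of the 5 cisplatin tumors. Col1a1, the α1 chain of type I collagen, was at 43.1, 67.7, 145, 738 and 553 CPM in cisplatin tumors 1 to 5 and at 212, 125, 207, 81.4 and 176 in vehicle tumors. Cisplatin 1 and 2 lay below every vehicle tumor and cisplatin 4 and 5 far above, and the log2 fold change of 0.95 ± 0.66 had an adjusted p of 0.35. Its partner Col1a2 ran in parallel at 59.4, 108, 221, 1002 and 831 CPM in cisplatin and 291, 189, 291, 144 and 262 in vehicle tumors. The per-length ratio of Col1a1 to Col1a2 stayed between 0.468 and 0.819 over the 20 tumors although the genes themselves ranged 17.1-fold and 16.9-fold within cisplatin.

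Several other fibril components had the same 2 high tumors. Col12a1, a fibril-associated collagen, was at 17.9, 34.7, 30.3, 110.1 and 128 CPM, and Col14a1, another of this kind, at 24.2, 18.6, 19.0, 49.7 and 72.1. Col5a2, the α2 chain of type V, was at 71.6, 73.6, 87.8, 234 and 194 CPM. In each of these genes tumors 4 and 5 exceeded 1 to 3 by more than 2-fold, and none was called. The rare type VI chains Col6a5 and Col6a6 were 21.7 and 13.2 times as high on average in tumors 4 and 5 as in 1 to 3, from means of 0.375 and 0.0895 CPM. Col3a1 differed less, at 7376, 6398, 7398, 10368 and 8788 CPM, 1.36 times as high in tumors 4 and 5.

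In all, 19 of 34 collagens (55.9%) had cisplatin 4 and 5 as their 2 highest cisplatin tumors, against 24.0% of the 16665 tested genes. This pair was singled out after its collagen values were seen, so the shares describe it and test nothing. Of 26 collagens with at least 20 reads in every cisplatin tumor, 7 ranged over 3-fold within the group, against 2.77% of tested genes; in vehicle 2 of 27 did, against 0.9%. The collagens that did not follow were Col18a1, Col8a1, Col6a3, Col7a1, Col4a5, Col28a1 and 9 more. Pi16, a marker of adventitial and universal fibroblasts, was at 60.5 and 61.8 CPM in cisplatin 4 and 5, at 4.5 to 8.8 in cisplatin 1 to 3, at 45.0 in cotreatment 5 and at 4.35 to 23.9 in the other 14 tumors. Clec3b and Mfap5 had their 3 highest values in the same 3 tumors. By group, Pi16 was at 5.04 to 13.1 CPM in vehicle and 15.2 to 45.0 in cotreated tumors, without overlap. It was not called there, at a log2 change of 1.34 (adjusted p = 0.137, edgeR). The general fibroblast markers did not move as one. Thy1 was at 42.1 and 32.0 CPM in cisplatin 4 and 5 against 10.2 to 15.3 in cisplatin 1 to 3, and Fbln1 at 32.2 and 32.8 against 14.6 to 19.5. Lum was at its lowest in this group there, at 523 and 449 CPM against 556 to 744. Pdgfra was at 205 and 182 CPM in cisplatin 4 and 5 and at 203 to 259.9 in cisplatin 1 to 3. Dcn was at 1393 and 1376 CPM in cisplatin 4 and 5, above cisplatin 1 to 3 at 1112 to 1317.5. Over the 5 cisplatin tumors Dpt ranged from 381 to 628.5 CPM and Fap from 20.1 to 27.9. Summed over the 10 fibroblast markers, cisplatin tumors ranged from 2491 to 2959 CPM and vehicle tumors from 2659 to 3245.

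Markers of other tissue were also examined in these tumors. Of 5 epidermal markers, Krt5, Krt14, Lor and Dsg1a were at 0 in 15 to 19 of the 20 tumors, and Krt10 was at 0.823 to 1.75 CPM. Of 6 cartilage markers, the transcription factor gene Sox9 was at 19.0 to 36.1 CPM in every tumor, Acan was at 0 in 19 tumors, and the other 4 were at 0.633 CPM or less. The 6 skeletal muscle markers summed to 8.62 CPM in cisplatin 4 and to 177 in cisplatin 5, and to 988 in cotreatment 4, the highest of all. Group medians of this sum were 2.85 CPM in vehicle, 2.98 in KW6002, 130.9 in cisplatin and 13.2 in cotreated tumors. Their median log2 change against vehicle was 2.76 in cisplatin and 3.67 in cotreated tumors, and none was called. Fat markers summed to 4.17 and 2.44 CPM in cisplatin 4 and 5, above cisplatin 1 to 3 at 0.432 to 0.696. Vehicle tumors ranged from 0.303 to 126.3 CPM for these markers. Cisplatin 3, 4 and 5 belong to the later run of library codes, and cisplatin 1 and 2 to the earlier. Fibrillar collagens without Col3a1 summed to 465 and 513 CPM in cisplatin 1 and 2 and to 772 in cisplatin 3. In cisplatin 4 and 5 they summed to 2455 and 1973 CPM. The parts that the code run and fibroblast content played in the collagen values were not tested.

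**Figure D2:**
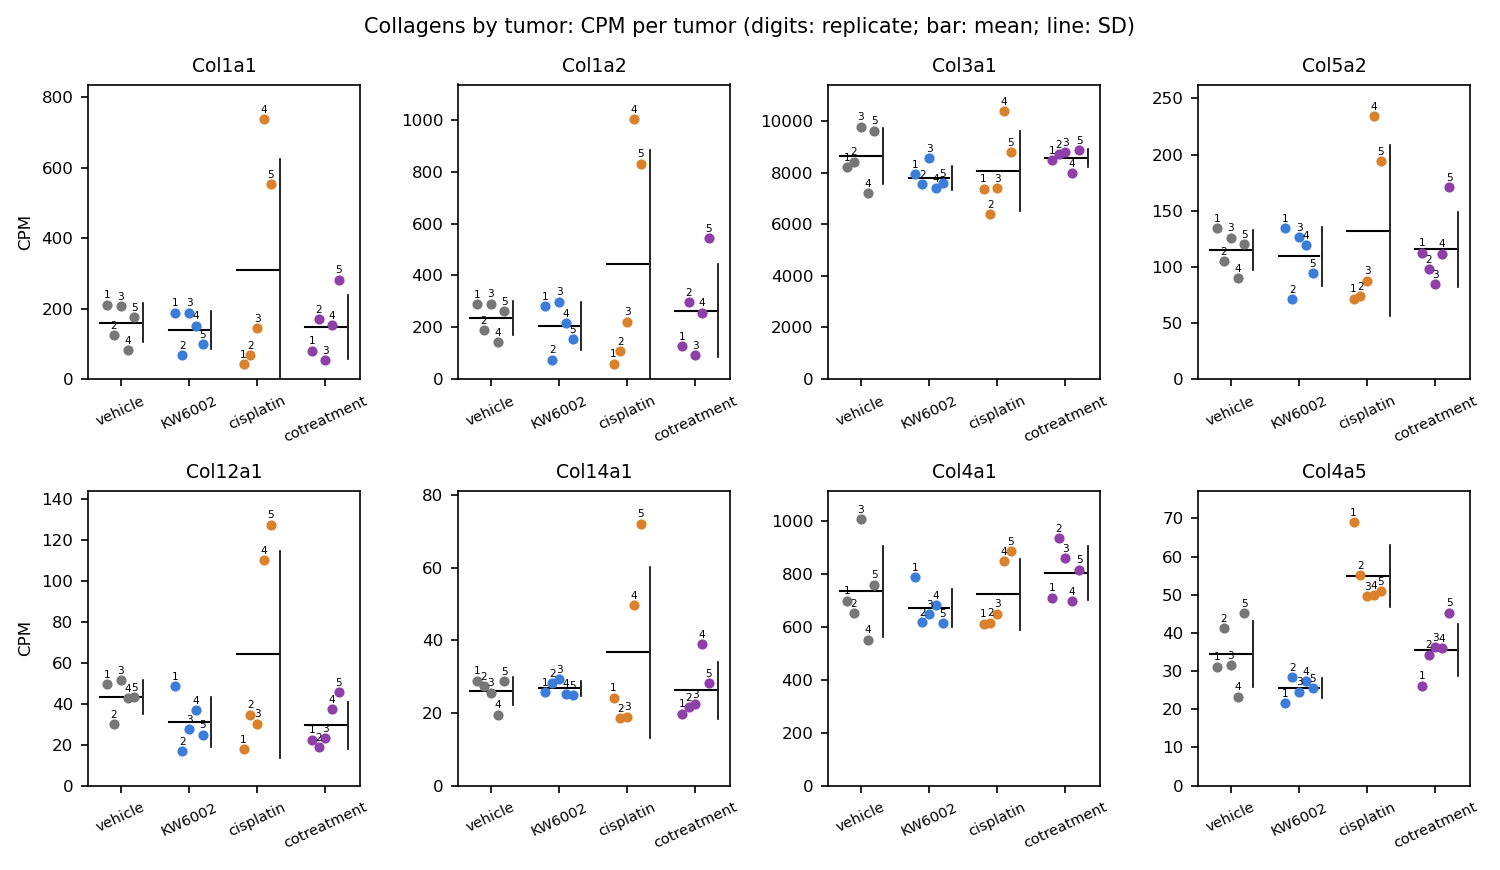
CPM (vertical axes, from 0) of 8 collagens in 20 tumors by group, with replicate numbers, means as bars and SDs of 5 tumors as lines, drawn no lower than 0. Cisplatin 4 and 5 are the highest tumors for Col1a1, Col1a2, Col5a2, Col12a1 and Col14a1, while Col4a5 is raised in all 5 cisplatin tumors.

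**Figure D3:**
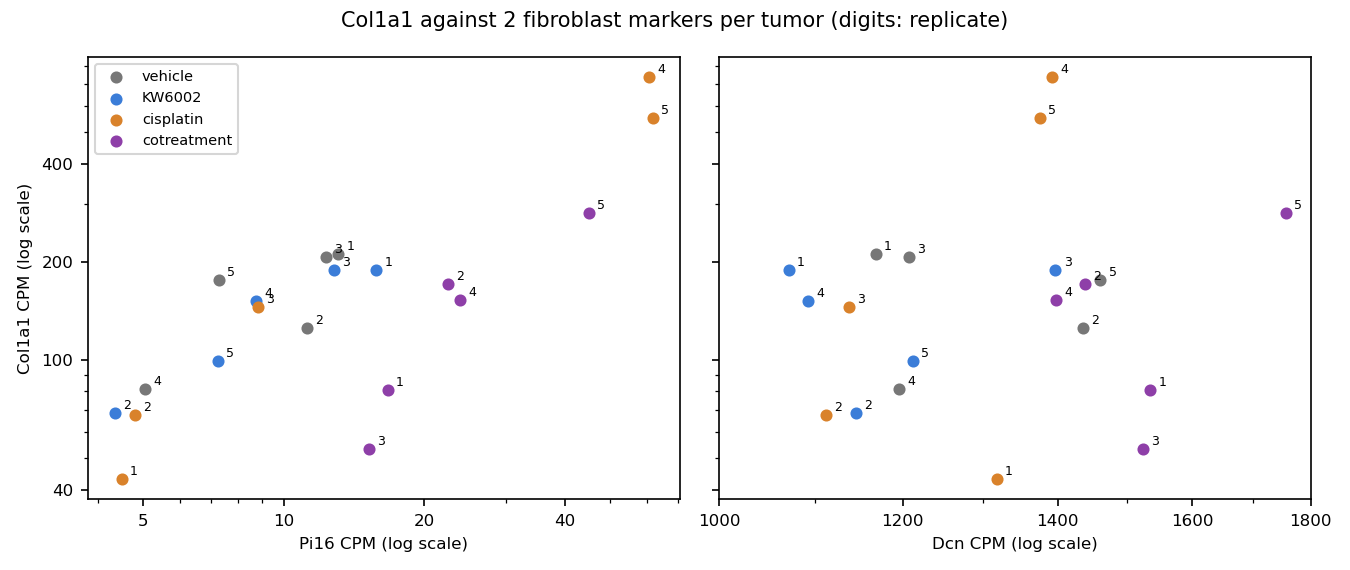
Col1a1 CPM (vertical, log scale) against Pi16 CPM (left, log scale) and Dcn CPM (right, log scale) in 20 tumors colored by group, with replicate numbers. Cisplatin 4 and 5 have Pi16 of 60.5 and 61.8 CPM and the highest Col1a1. Their Dcn of 1393 and 1376 CPM lies above cisplatin 1 to 3 and inside the range of all other tumors.

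With cisplatin 4 and 5 left out, an alternative chosen after their values were seen, cisplatin against vehicle called 4 collagens, the same 2 and 2 that were lower. Col5a3, the α3 chain of type V, then had a log2 fold change of -0.77 (adjusted p = 0.000388) in place of -0.37 (adjusted p = 0.161). Col15a1, a multiplexin of vascular and muscle basement membranes, then had -1.33 (adjusted p = 0.000451) in place of -0.71 (adjusted p = 0.0712). Col15a1 was at 7.68, 9.27, 10.4, 24.0 and 19.1 CPM in cisplatin and 21.2, 20.4, 29.5, 17.8 and 26.6 in vehicle tumors, so cisplatin 1 to 3 lay below all vehicle tumors and 4 and 5 among them. Leaving out cisplatin 4 alone also sufficed for both calls, with -0.55 (adjusted p = 0.0233) for Col5a3 and -0.98 (adjusted p = 0.0125) for Col15a1.

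Cotreatment against vehicle gave the most collagen calls of the vehicle comparisons, 9 of 34 (26.5%) where 23.5% of all tested genes were called, a share close to the background. Col6a1, Col6a2, Col18a1 and Col28a1 rose, and Col6a3, Col5a3, Col24a1, Col8a1 and Col15a1 fell, 4 and 5 members where 13.1% and 10.4% of tested genes were called higher and lower. By class these were 2 of 10 fibrillar, 0 of 4 basement membrane and 7 of 20 other collagens. In 6 of the 34 collagens no cotreated tumor overlapped a vehicle tumor, against 24.7% of all tested genes. The median log2 change of the 34 was 0.03, against -0.02 over all tested genes. The 5 vehicle tumors served as controls here and for cisplatin alone.

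The type VI chains split. Col6a1, the α1 chain, was at 753.7, 768, 899.7, 508 and 755.7 CPM in vehicle tumors 1 to 5 and at 1015, 1233, 1137, 941 and 1232 in cotreated tumors. All 5 cotreated tumors exceeded all vehicle tumors, with a log2 fold change of 0.59 ± 0.16 or 1.51-fold (adjusted p = 0.00737, edgeR). Col6a2, the α2 chain, was at 371, 338, 398, 238 and 351 CPM in vehicle and 505, 618, 549.9, 457 and 588 in cotreated tumors, again without overlap, at 0.68 ± 0.18 or 1.6-fold (adjusted p = 0.00686).

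Col6a3, the long α3 chain that completes the trimer, went the other way. It was at 615, 383, 488, 382 and 529.6 CPM in vehicle and 343, 328, 397, 381 and 326 in cotreated tumors. The groups overlapped, since vehicle 2 and 4 lay inside the cotreated range, and the log2 fold change was -0.43 ± 0.12 or 0.74-fold (adjusted p = 0.0079). Without vehicle 1, the highest, it was -0.31 and under the fold limit.

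Per kilobase, the ratio of Col6a1 to Col6a2 was 2.09 ± 0.0966 with vehicle, 2.05 ± 0.0621 with KW6002, 2.11 ± 0.147 with cisplatin and 1.97 ± 0.0392 with cotreatment (SD over 5 tumors), so these 2 genes, neighbours on chromosome 10, kept close to 1 ratio. The ratio of Col6a1 to Col6a3 was 3.44 ± 0.747, 3.39 ± 0.325, 4.79 ± 1.64 and 6.95 ± 1.28 in the same order, and in cotreated tumors its range of 5.42 to 8.3 lay above the vehicle range of 2.69 to 4.41. Of the remaining type VI chains, Col6a4, Col6a5 and Col6a6 were each under 10 CPM in every tumor and were not called in this comparison. Col6a4 had a log2 change of -0.96 (adjusted p = 0.0939) and was called lower without KW6002 1 (-0.96, adjusted p = 0.0499).

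Col18a1, whose end fragment is endostatin, was at 1049.6, 1041, 1213, 721 and 959.5 CPM in vehicle and 1252, 1471, 1323, 1307 and 1102 in cotreated tumors. Vehicle 3 lay above cotreatment 5, and the log2 fold change was 0.37 ± 0.1 or 1.3-fold (adjusted p = 0.00812); without vehicle 4, the lowest, it was 0.28 and under the fold limit. Col28a1 reached 5.16, 8.02, 5.7, 7.18 and 7.92 CPM in cotreated tumors, all above the vehicle range, at 1.22 ± 0.24 or 2.32-fold (adjusted p = 0.000605).

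Of the collagens that fell, Col15a1 fell the most. It was at 9.27, 7.71, 11.6, 9.25 and 10.5 CPM in cotreated tumors, all below the lowest vehicle tumor at 17.8, for a log2 fold change of -1.26 ± 0.27 or 0.418-fold (adjusted p = 0.00126). Col8a1, a short-chain network collagen of vessel walls and corneal endothelium, was at 99.0, 115, 135, 137 and 132 CPM in vehicle and 82.3, 61.9, 73.2, 75.4 and 51.3 in cotreated tumors. These groups did not overlap either, and the log2 fold change was -0.85 ± 0.14 or 0.556-fold (adjusted p = 0.000154).

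Among fibrillar chains Col5a3 fell without overlap, from 121, 101, 113, 92.1 and 95.4 CPM in vehicle to 50.1, 53.9, 52.0, 70.2 and 50 in cotreated tumors, with a log2 fold change of -0.92 ± 0.18 or 0.528-fold (adjusted p = 0.000561). Cotreatment 4 stood above the other 4, which were within 50 to 53.9 CPM. The main type V chain Col5a1 did not pass the test, at -0.27 ± 0.13 (adjusted p = 0.0999), though it did without vehicle 4, at -0.35 (adjusted p = 0.0306), and the per-length ratio of Col5a3 to Col5a1 was 0.544 ± 0.0807 in vehicle and 0.341 ± 0.0601 in cotreated tumors. Col24a1, a rare fibrillar collagen known from developing bone and cornea, was at 6.49, 3.8, 4.9, 4.35 and 4.27 CPM in vehicle and 4.13, 3.0, 3.48, 4.43 and 2.71 in cotreated tumors. These values overlapped, and the call at -0.42 ± 0.16 (adjusted p = 0.0435) was lost in 12 of 20 fits that each left out 1 tumor, most of all without vehicle 1, at -0.27 (adjusted p = 0.185).

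The abundant fibrillar collagens did not pass the test in cotreated tumors. Col3a1 was at 8494, 8719.5, 8783, 7975 and 8876 CPM against 8212, 8424, 9779, 7191 and 9629 in vehicle tumors, a log2 change of -0.01 with a 95% interval of -0.21 to 0.19. For Col1a1 the values were 80.9, 171, 53.1, 152 and 282 CPM, with cotreatment 5 the highest and an interval of -1.41 to 1.18. Col1a2 behaved alike, with 544 CPM in cotreatment 5. The basement membrane chains Col4a1 and Col4a2 had 0.13 ± 0.14 and 0.36 ± 0.16, the latter with an adjusted p of 0.083. Col4a2 was called by DESeq2 (0.37, adjusted p = 0.046), without vehicle 3 (0.53, adjusted p = 0.00834), without cotreatment 4 (0.44, adjusted p = 0.0445) and with cisplatin 4 and 5 left out (0.37, adjusted p = 0.0456). Col4a1 and Col4a2 lie head to head on chromosome 8, where they share 22 bases on opposite strands, and their per-length ratio ran only from 1.8 to 2.32 over the 20 tumors.

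**Figure D4:**
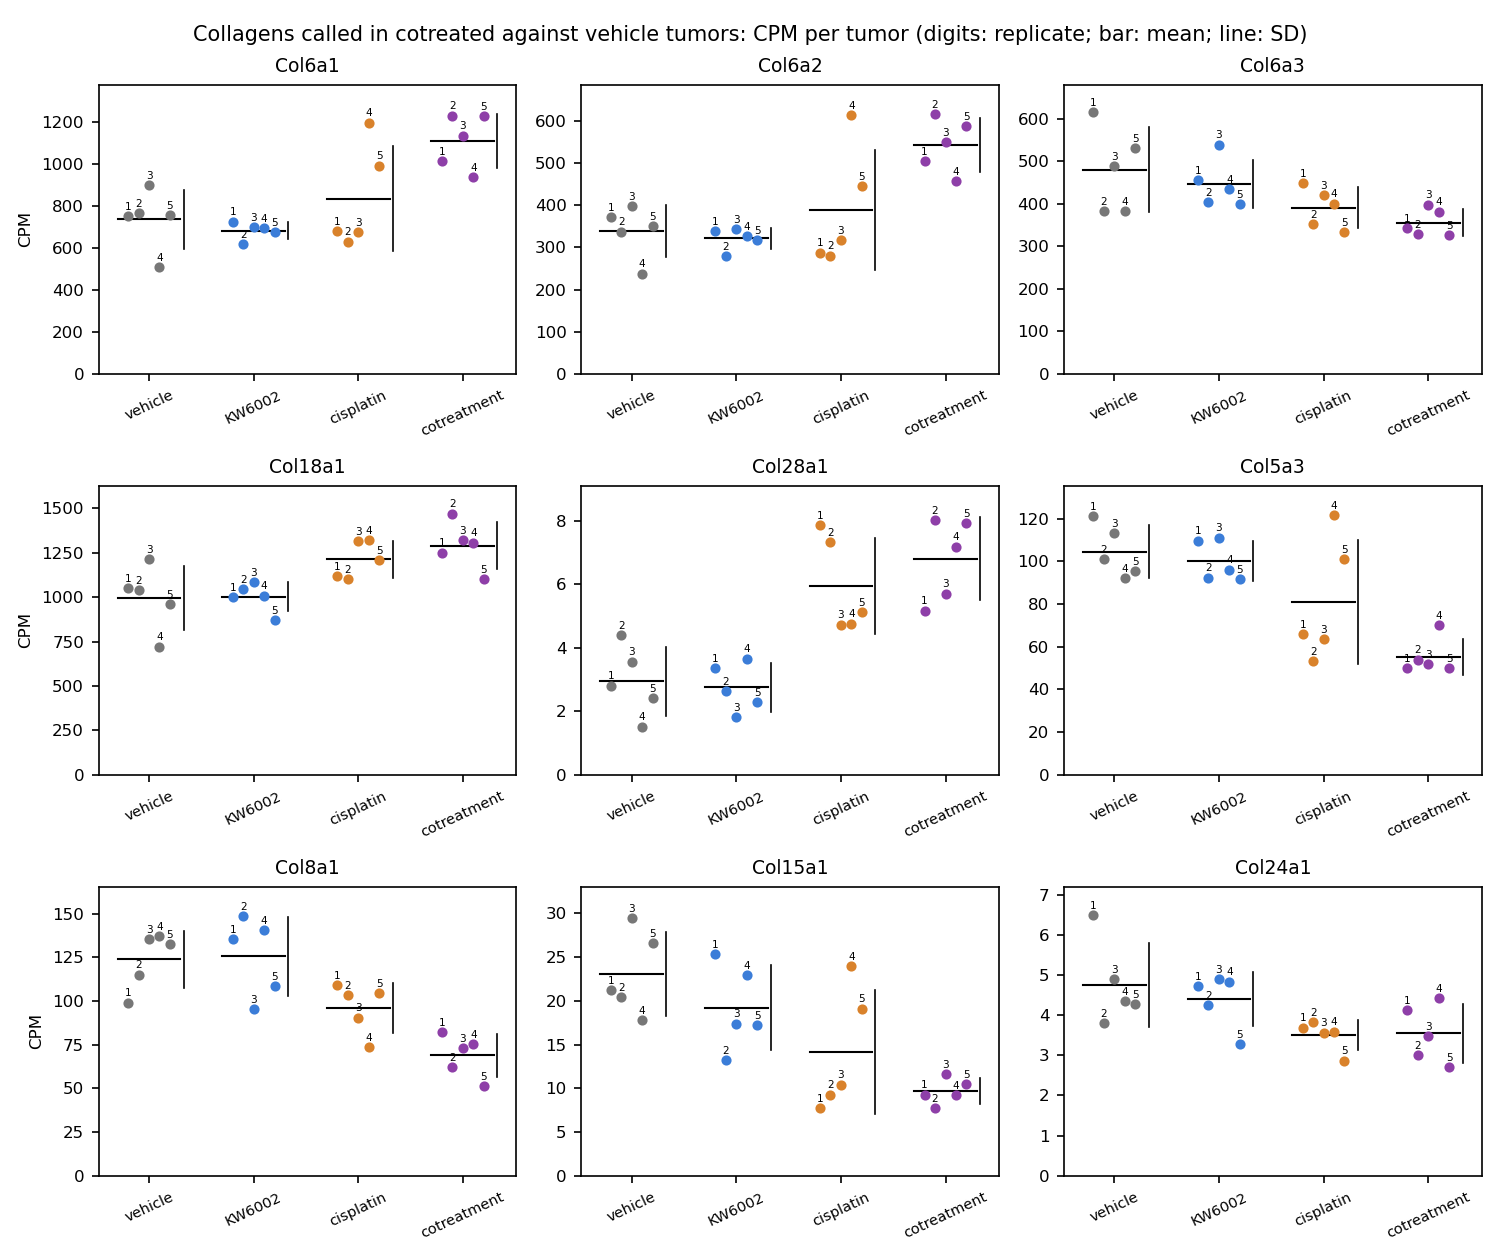
CPM (vertical axes, from 0) of the 9 collagens called in cotreatment against vehicle, in 20 tumors by group, with replicate numbers, means as bars and SDs of 5 tumors as lines. Cotreated tumors lie wholly above vehicle for Col6a1, Col6a2 and Col28a1 and wholly below for Col5a3, Col8a1 and Col15a1, while Col6a3, Col18a1 and Col24a1 overlap.

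The calls of Col6a1, Col6a2, Col28a1, Col5a3, Col8a1 and Col15a1 were kept in all 20 fits that left out 1 tumor. In the later run of codes alone, with 4 vehicle and 2 cotreated tumors, 3 of the 9 were called, where the share of all tested genes called was 12.8% in place of 23.5%. These were Col8a1 at -1.02 ± 0.2 (adjusted p = 0.0069), Col15a1 at -1.24 ± 0.32 (adjusted p = 0.0266) and Col28a1 at 1.37 ± 0.33 (adjusted p = 0.0172), while Col6a1 had 0.59 ± 0.24 (adjusted p = 0.129), Col6a2 0.68 ± 0.25 (adjusted p = 0.0964), Col5a3 -0.72 ± 0.23 (adjusted p = 0.0617), Col6a3 -0.32 ± 0.17 (adjusted p = 0.23), Col18a1 0.31 ± 0.17 (adjusted p = 0.239) and Col24a1 -0.26 ± 0.22 (adjusted p = 0.482).

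Markers of the cells that line and support vessels were lower in both cisplatin arms. Endothelial markers summed to 145 to 212 CPM in vehicle, 73.6 to 101 in cisplatin and 71.4 to 110.3 CPM in cotreated tumors, and all 6 of the list fell in each arm, among them Cdh5, the vascular cadherin, and Pecam1, where 4.57% of all tested genes were lower in cisplatin and 10.4% in cotreated tumors. Pericyte and smooth muscle markers summed to 101.5 to 177 CPM in vehicle, 59.4 to 83.4 in cisplatin and 59.0 to 80.1 in cotreated tumors, and 7 of 8 fell in each, against the same shares. Of the fibroblast list 2 of 10 rose, Dpt and Fap, and 1 fell, Lum, in cotreated tumors, against 13.1% and 10.4% of tested genes, and its sum was 2805 to 3317 CPM there. In cisplatin tumors 1 of the 10 rose, Dpt by 0.55, and 2 fell, Lum by 0.63 and Pdgfra by 0.42 (log2), against 6.01% and 4.57% of tested genes. Of the carcinoma markers Krt8 and Krt7 rose in both arms, by 0.53 and 1.6 in cisplatin and by 0.57 and 1.64 in cotreated tumors (log2), and the list summed to 393 to 426.5 CPM in vehicle, 481 to 600.5 in cisplatin and 468.5 to 549.5 in cotreated tumors. Of 6 macrophage markers Mrc1 rose in both arms, by 0.64 and 0.46 (log2), and Csf1r fell by 0.32 in cotreated tumors, with sums of 1032 to 1468, 1145 to 1994 and 1137 to 1475.5 CPM in the same order of groups. Sums for skin epidermis were 1.0 to 1.54 CPM in cotreated and vehicle tumors. Skeletal muscle markers summed to 2.49 to 52.8 CPM in vehicle and 2.21 to 988 in cotreated tumors. Fat markers summed to 0.303 to 126.3 and 0.468 to 25.4 CPM, and no muscle or fat marker was called. The part of these markers in the changes of Col15a1, Col8a1, Col5a3, Col6a1 and Col6a2 was not tested.

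Cotreatment against cisplatin asks what KW6002 added to cisplatin. It called 2 of 34 collagens (5.88%), both lower with KW6002, where 4.0% of all tested genes were called, 2.29% higher and 1.71% lower. In 1 of 34 the groups did not overlap, against 4.83%. Col4a5 was at 26.2, 34.3, 36.3, 36.1 and 45.3 CPM in cotreated tumors, all below the cisplatin minimum of 49.6, at a log2 fold change of -0.62 ± 0.16 or 0.649-fold (adjusted p = 0.0223). Against vehicle, Col4a5 in cotreated tumors differed by 0.05 with an interval of -0.26 to 0.35. KW6002 alone had -0.44 ± 0.16 against vehicle for this gene, which was not called. Cotreated tumors were above KW6002 tumors by 0.48 ± 0.16 for it (adjusted p = 0.0219, edgeR). The interaction of Col4a5 was not called by edgeR. Col8a1 was at 109, 103, 90.5, 73.4 and 104 CPM in cisplatin tumors, which overlapped the cotreated ones through cisplatin 4, at -0.48 ± 0.14 (adjusted p = 0.048). Col5a3 missed the threshold at -0.55 ± 0.18 (adjusted p = 0.068), and it was called lower by DESeq2 (adjusted p = 0.0182), without cisplatin 2 (-0.67, adjusted p = 0.02) and without cotreatment 4 (-0.65, adjusted p = 0.033).

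Neither call held throughout. The call of Col8a1 was lost in 13 of 20 fits that left out 1 tumor, with log2 values of -0.56 to -0.39 over the 20. It was also lost with the replicate number as a block, at -0.49 (adjusted p = 0.0793). That of Col4a5 was lost without cotreatment 1, 2 or 3, with adjusted p between 0.0571 and 0.0656. Its log2 values ran from -0.73 to -0.53 over the 20 fits. In the later run alone Col4a5 had -0.3 (adjusted p = 0.569) and Col8a1 -0.5 (adjusted p = 0.356), and in the earlier run -0.94 (adjusted p = 0.0486) and -0.54 (adjusted p = 0.037). The largest log2 differences belonged to genes with the wide cisplatin group, with the cartilage collagen Col2a1 at -1.25 ± 0.48 (adjusted p = 0.129), Col12a1 at -1.12 ± 0.46 (adjusted p = 0.16) and Col1a1 at -1.06 ± 0.66 (adjusted p = 0.354). With cisplatin 4 and 5 left out, Col6a1 and Col6a2 were called higher under cotreatment, at 0.75 (adjusted p = 0.00485) and 0.88 (adjusted p = 0.00194), in place of 0.41 (adjusted p = 0.132) and 0.48 (adjusted p = 0.118). Leaving out cisplatin 4 alone also sufficed for both, at 0.58 (adjusted p = 0.0295) and 0.71 (adjusted p = 0.0106). In the earlier run of codes alone, with 2 cisplatin and 3 cotreated tumors, they had 0.79 (adjusted p = 0.008) and 0.98 (adjusted p = 0.00456), and Col23a1 was called higher at 0.8 (adjusted p = 0.037). That run called 5 of the 34, against 1.62% of all tested genes, and the later run 0 of the 34 and 1 gene in all. DESeq2 called Col6a2 higher over all 20 tumors, at 0.49 (adjusted p = 0.0435).

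**Figure D5:**
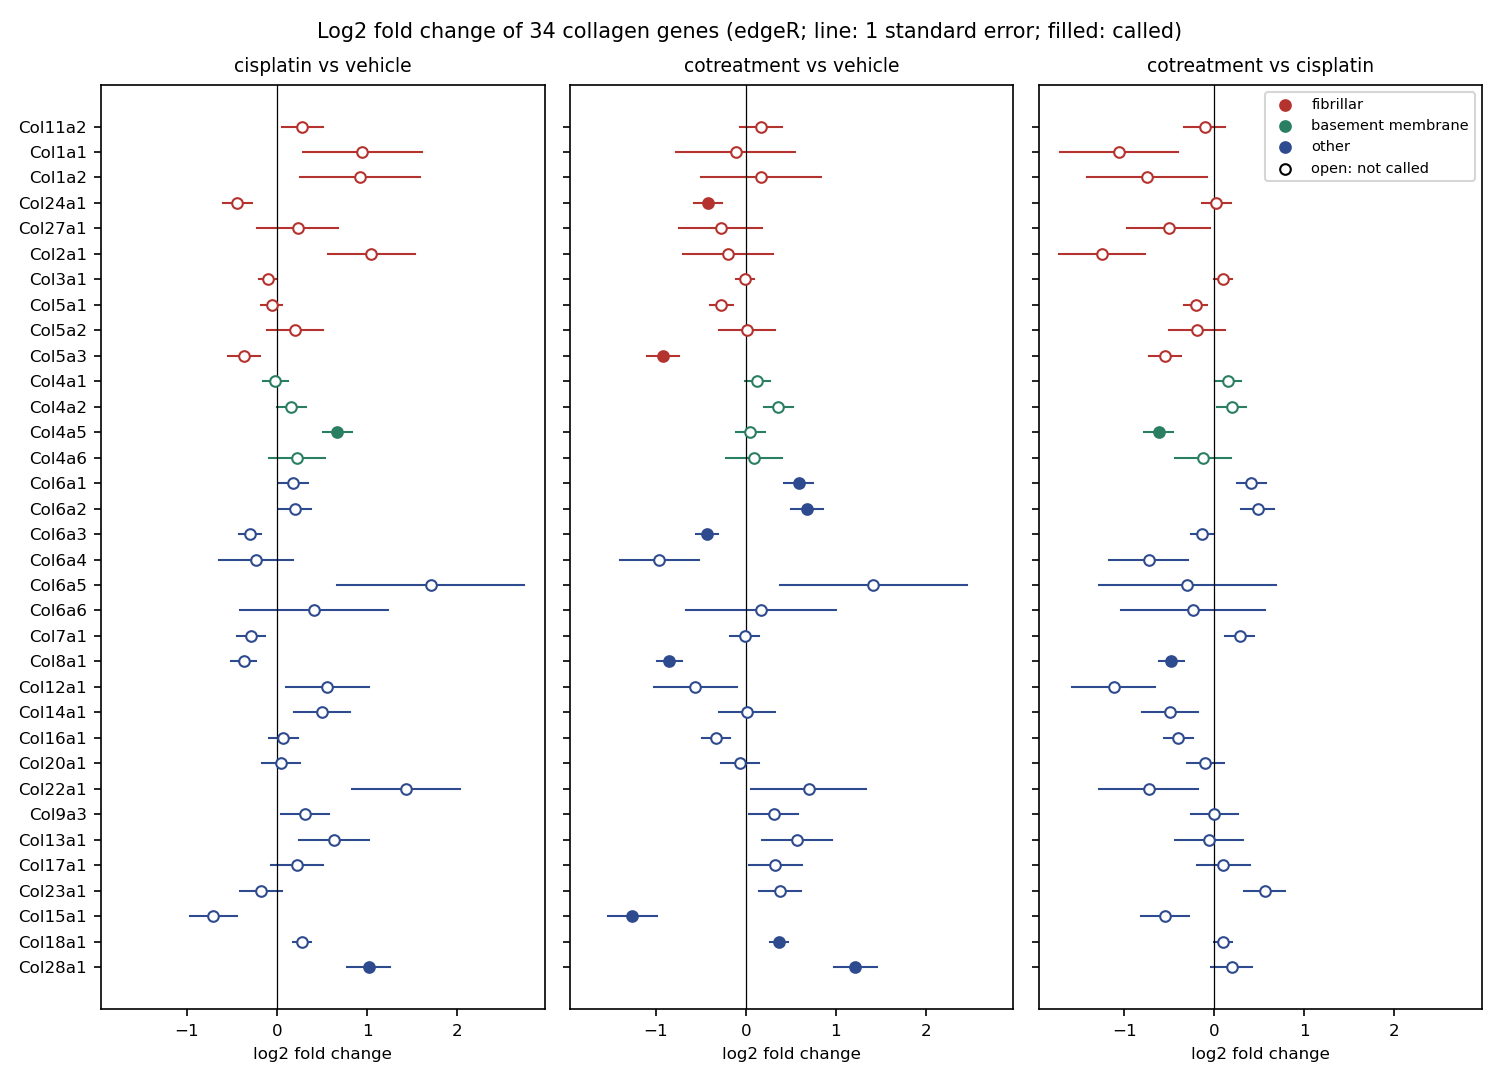
Log2 fold change (horizontal) of 34 collagens, ordered by class, for cisplatin against vehicle, cotreatment against vehicle and cotreatment against cisplatin. Lines are 1 standard error, colors are classes, and filled points were called, 2, 9 and 2 of the 34, while Col6a5 carries the longest error line in every panel.

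Cotreatment against KW6002, which asks what cisplatin added to the antagonist, called 12 of 34 collagens (35.3%) against 23.3% of all tested genes. Of these 7 were higher and 5 lower, where 12.6% and 10.7% of tested genes were. In 9 of the 34 the groups did not overlap, against 24.9% of tested genes. Col6a1 at 0.7 ± 0.16, Col6a2 at 0.76 ± 0.18, Col18a1 at 0.37 ± 0.1 and Col28a1 at 1.3 ± 0.24 rose, and Col15a1 at -0.99 ± 0.27, Col8a1 at -0.87 ± 0.14, Col5a3 at -0.86 ± 0.18 and Col6a3 at -0.33 ± 0.12 fell (log2 ± SE). Col4a5 at 0.48 ± 0.16, Col9a3 at 0.72 ± 0.28, Col23a1 at 0.96 ± 0.23 and Col6a4 at -1.19 ± 0.43 were called here and not against vehicle. Adjusted p ranged from 0.000124 for Col8a1 to 0.0479 for Col9a3. Col4a2 missed the threshold at 0.41 ± 0.16 (adjusted p = 0.0508), and it was called in 7 of 20 fits that left out 1 tumor and under 7 other alternatives, DESeq2, RLE scaling and leaving out cisplatin 4 and 5 among them.

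Col23a1 was at 10.9, 13.5, 9.65, 9.86 and 13.5 CPM in KW6002 and 26.7, 23.5, 32.2, 14.0 and 15.1 in cotreated tumors, all above the KW6002 range. Vehicle tumors, at 14.1, 18.8, 24.9, 11.4 and 16.7 CPM, overlapped both. Col6a4 was at most 1.03 CPM, in KW6002 1, and its call was lost in 5 of 20 fits that left out 1 tumor, with -0.68 (adjusted p = 0.217) without KW6002 1. The call of Col6a3 was lost in 9 of the 20 and that of Col4a5 in 2, without KW6002 1 or cotreatment 5. Col9a3 was at most 2.09 CPM, its exon overlaps the antisense gene Tcfl5, and its call was lost in 12 of 20 fits that left out 1 tumor. In the later run alone 2 of the 12 were called, Col8a1 and Col28a1, where the share of all tested genes called was 9.6% in place of 23.3%, and in the earlier run the calls of Col4a5, Col6a3, Col6a4 and Col9a3 were lost and those of Col4a2 and Col16a1 gained, 10 of 34 against 19.4%. All 12 kept their direction in both runs. Among the calls lost in the later run the log2 values were 0.67 for Col6a1, 0.68 for Col6a2, -0.95 for Col15a1, -0.72 for Col5a3 and 0.91 for Col9a3, while Col23a1 went from 0.96 to 0.42. In the earlier run Col4a5 had 0.37, Col6a3 -0.26, Col6a4 -1.57 and Col9a3 0.52.

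Whether KW6002 acted differently with cisplatin than without was tested by the interaction term. It called 0 of 34 collagens in edgeR, where 0.066% of all tested genes were called, 0.036% upward and 0.03% downward. At an unadjusted p under 0.05 there were 4 collagens and 2034 of all genes. DESeq2 called 1 collagen, Col23a1, where it called 1.55% of all tested genes. By edgeR Col23a1 had an interaction of 1.14 ± 0.32 on the log2 scale (adjusted p = 0.153). It was called without cotreatment 4, at 1.27 (adjusted p = 0.0426), where 1.36% of all tested genes were called. The interaction was for Col6a1 0.52 ± 0.23 (adjusted p = 0.36), Col6a2 0.56 ± 0.26 (adjusted p = 0.385) and Col8a1 -0.5 ± 0.2 (adjusted p = 0.308). With cisplatin 4 and 5 left out Col6a1 and Col6a2 were called, at 0.85 (adjusted p = 0.0401) and 0.95 (adjusted p = 0.0353), where 0.335% of all tested genes were called.

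Under cotreatment, genes that make collagen were called lower more often than higher, while those that crosslink or degrade it moved in both directions. Of 27 genes for collagen synthesis and processing, 1 rose and 8 fell against vehicle, where 13.1% of all tested genes were called higher and 10.4% lower, with a list median of -0.16 on the log2 scale where all tested genes had -0.02. Plod3, which hydroxylates and glycosylates collagen lysines, went from 143 ± 7.92 CPM in vehicle to 95.2 ± 8.75 in cotreated tumors (-0.58 ± 0.08, adjusted p = 8.99e-06). Colgalt1, which adds galactose to them, had -0.35 ± 0.06 (adjusted p = 6.73e-05), and Adamts3, a procollagen N-proteinase, rose by 0.72 ± 0.15 (adjusted p = 0.00088). Cisplatin alone called 7 of the 27, 1 higher and 6 lower, against 6.01% and 4.57% of all tested genes.

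Of 6 crosslinking genes 2 rose and 2 fell in cotreated tumors, where 13.1% and 10.4% of tested genes did. The lysyl oxidase Loxl2 was at 46.5 ± 3.07 CPM in vehicle, 71.1 ± 16.4 in cisplatin and 77.9 ± 13.7 in cotreated tumors, and was called in both (0.61 ± 0.13 and 0.75 ± 0.13). Transglutaminase Tgm2 fell in both, at -0.51 ± 0.12 and -0.76 ± 0.12. Among 9 collagen receptors Itga10, an integrin α subunit that binds collagen, went from 7.89 ± 1.37 CPM in vehicle to 27.1 ± 1.94 in cisplatin and 77.9 ± 26.1 in cotreated tumors, and it was called in cotreatment against cisplatin as well (1.52 ± 0.19, adjusted p = 0.000645). Itga1 and Itga2, the other collagen-binding subunits called, fell by 0.59 and by 0.7 in cotreated tumors (log2).

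In the same comparison, with 13.1% of tested genes higher and 10.4% lower, 2 of 10 breakdown genes rose, the metalloprotease inhibitor Timp2 and the fibroblast protease Fap, and 2 fell, the collagenase Mmp13 at -2.45 ± 0.42 (adjusted p = 0.000249) and the inhibitor Timp1 at -0.53 ± 0.19 (adjusted p = 0.0387). Mmp13 also fell under cisplatin alone, from 22.0 ± 6.47 to 6.37 ± 4.22 CPM. Of 12 fibril partners 10 were tested and 3 fell, among them lumican (Lum), which coats type I fibrils, at -0.58 ± 0.13, and periostin (Postn) at -0.98 ± 0.35. Of 11 genes for TGF-beta, a known inducer of collagen expression, its receptors and targets, against the same 13.1% and 10.4%, 2 rose, the ligand Tgfb2 and the receptor Tgfbr2, and 4 fell, with Tgfb3 at -0.99 ± 0.11 and the feedback inhibitor Smad7 at -0.7 ± 0.14. KW6002 alone called 0 genes in any of these 6 lists by edgeR, as in all tested genes.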

How the data were processed

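Poly-A mRNA of 20 tumors was sequenced from stranded single-end libraries. The authors deposited raw counts per gene, made with STAR and HTSeq 0.6.1p1 from uniquely aligned reads on mm10; the strand option of counting was not given in the sources used here. Counts summed to 28.4 to 41 M per tumor. The 95% intervals of log2 changes span 1.96 standard errors of the fit on either side and include the spread between tumors. Since the labels do not say that tumors came from separate mice, p-values measure the spread between these samples.

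Counts were scaled with TMM and filtered with filterByExpr, leaving 16665 genes with 99.9% of the reads. All 20 tumors entered 1 edgeR 4.0.16 robust quasi-likelihood fit (R 4.3.3, limma 3.58.1) with contrasts between groups and an interaction, and p-values were two-sided and adjusted by Benjamini-Hochberg over all tested genes. Calls needed an adjusted p under 0.05 and a log2 change of at least 0.32. The script was tested on simulated data. By rule, values were given for collagens called in any comparison, for the main chains of types I, III, IV, V, VI and XVIII, and for up to 2 called genes per direction in each pathway list; Col2a1, Col4a6, Col12a1, Col14a1, Col23a1 against vehicle, Col6a5 and Col6a6 were named after their values were seen. Members and lists were chosen with earlier results of these data known. DESeq2 1.42.0, other scalings and filters, a replicate block, code runs and leaving out each tumor were tried as alternatives. Leaving out cisplatin 4 and 5, also with cotreatment 5, and the earlier run alone were added after the data were seen.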

Additional observations from a re-analysis of the deposited data

Results flagged for a closer look

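Each of 92 checks took 1 collagen in 1 group of 5 tumors and divided the gap from the extreme tumor to the next by the range. In 3 this ratio exceeded Dixon's critical value of 0.71, and chance flags about 5% of such checks. Col24a1 was at 2.87 CPM in cisplatin 5, where the next tumor had 3.57. Col5a3 was at 70.2 CPM in cotreatment 4, where the next had 53.9. Col4a5 was at 69.1 CPM in cisplatin 1, where the next had 55.1.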

How the results depend on the processing

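Of the 20 collagens named by rule, none reversed its direction past the threshold under any alternative run. The other collagens were not checked for this. KW6002 against vehicle called 0 collagens in every setting. Cisplatin against vehicle called 4 with cisplatin 4 and 5 left out, 4 with cotreatment 5 left out as well, and 2 to 4 when each tumor was left out in turn, with 4 without cisplatin 4. Cotreatment against vehicle called 3 in the later run and 7 to 10 when each tumor was left out. Cotreatment against cisplatin called 4 by DESeq2, 1 with RLE scaling, 0 without a filter on low counts, 0 in the later and 5 in the earlier run, 1 with only the groups compared, 4 with cisplatin 4 and 5 left out, 3 with cotreatment 5 left out as well, and 0 to 4 when each tumor was left out. Cotreatment against KW6002 called 2 in the later run and 9 to 13 when each tumor was left out. The interaction called 1 by DESeq2, 2 with cisplatin 4 and 5 left out and 0 to 1 when each tumor was left out. Over all genes tested, the number called moved by over 1.5 times as follows. Without a limit on the fold, cisplatin against vehicle called 2752 genes in place of 1762, cotreatment against vehicle 5906 in place of 3914, cotreatment against cisplatin 1086 in place of 667, and cotreatment against KW6002 5837 in place of 3884. In the later run these counts were 2743, 2209, 1 and 1654, in the same order. Cotreatment against cisplatin called 287 genes in the earlier run, 217 with only the groups compared, 422 with cisplatin 4, cisplatin 5 and cotreatment 5 left out, and 289 to 1013 when each tumor was left out, with the ends of that range without cotreatment 2 and cotreatment 4. The interaction called 11 genes, against 258 by DESeq2, 21 without a filter on low counts, 39 with at least 10 counts in every tumor, 17 with the library code run as a term, 57 with cisplatin 4 and 5 left out, 0 in the later run, 0 with the replicate block, and 0 to 229 when each tumor was left out, with 229 without cotreatment 4. The causes were not tested. With the replicate number as a block the 6 counts were 0, 3, 9, 1, 11 and 0, and the call gained in cisplatin against vehicle was Col24a1 (-0.43, adjusted p = 0.0314). The calls lost were Col8a1 against cisplatin (-0.49, adjusted p = 0.0793) and Col9a3 against KW6002 (0.72, adjusted p = 0.0676), both in cotreatment. The numbers were not taken to pair the tumors, since 12 of 30 same-number pairs had a correlation over 0.1, ranging from -0.392 to 0.391. Between cisplatin and cotreatment the values for pairs 1 to 5 were 0.157, 0.226, 0.193, -0.163 and 0.186. A fit of only the groups compared was not run for the interaction, which needs all 4. Collagens under about 1 CPM rest on few reads, and how small a change in them could be detected was not tested.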
